A study of Homo sapiens with 21 samples.

Results

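The luminal breast transcription factors examined here were FOXA1, GATA3, SPDEF, ELF3, TFAP2A, TFAP2B, TFAP2C and GRHL2, 8 of the 58735 genes in the expression table. They were selected by gene symbol, and each symbol matched 1 row. Levels were measured by RNA sequencing in MDA-MB-453 cells, a human breast cancer cell line, in 21 libraries that formed 7 groups of 3. The untreated group is called control. Cells received calcium (10 mM), cadmium (10 µM), the agonist GSK4716 (5 µM) or DES (10 µM) for 24 h, and in the DES_calcium and DES_cadmium groups DES was given 3 h before the metal. DES is diethylstilbestrol, a synthetic estrogen, and the study used it as an antagonist of the estrogen-related receptor ESRRB, for which GSK4716 was the agonist. All cells were wild type and had spent a day in charcoal-stripped serum before treatment. Calcium and GSK4716 were given in medium without serum and cadmium in medium with little serum, while the medium of the control group and of cells given DES alone was not given in the sources used here. Treatment and medium therefore cannot be told apart in a comparison with control or with DES alone. GSK4716 and DES were given in ethanol, and whether the other groups received ethanol was not stated. Ethanol thus cannot be told apart from DES or GSK4716 where libraries with and without them are compared. Nothing in the labels says whether the 3 libraries of a group came from separate cultures, so p-values measure only the spread between these libraries, which may be technical.

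Luminal cells line the ducts and lobules of the breast, and their identity is held by transcription factors that act together on shared enhancers. FOXA1 is a forkhead pioneer factor that opens chromatin for hormone receptors, and GATA3 is a zinc finger factor required to form and keep the luminal lineage. The AP-2 factors TFAP2A, TFAP2B and TFAP2C bind the same GC-rich element as dimers. GRHL2, of the grainyhead family, keeps genes for epithelial junctions active, and SPDEF and ELF3 are epithelial members of the ETS family.

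Libraries held 14435925 to 28424805 fragments on genes. The label of the cells was checked against 10 luminal markers, and 9 of them, among them the keratins KRT8, KRT18 and KRT19, had a mean of at least 1 FPKM, with MUC1 below it. FPKM is fragments scaled by the exon length of the gene and by library size. Levels compared between genes therefore rest on that length, which ran from 1914 bases for SPDEF to 8274 for TFAP2A. It may differ from the length of the transcripts present. Summed over each marker list, luminal markers were at 1198 to 3548 FPKM per library, basal markers at 0.890 to 13.1, mesenchymal markers at 0.723 to 13.9, fibroblast markers at 9.35 to 32.8, leukocyte markers at up to 1.05 and endothelial markers at up to 0.404. Of 4 fibroblast markers only COL1A1 reached a mean of 1 FPKM, and of 8 mesenchymal markers SNAI1 and CDH2. Libraries of the DES_cadmium group differed most among themselves, with a median SD per gene of 0.520 on the log2 scale, against 0.216 in control.

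The bases before a RefSeq transcription start were searched for the elements that these families bind, to show the letters near the start of genes that are described together below. RefSeq promoters (GRCh38.p14) were at hand for 6 members, FOXA1, GATA3, SPDEF, TFAP2A, TFAP2B and ELF3, and their 250 upstream bases were searched on both strands. The forkhead element TGTTTNC was in 3 of the 6, those of FOXA1, GATA3 and TFAP2A, and in 15.5% of 35116 promoters. The AP-2 element GCCNNNGGC was in that of GATA3 and in 19.8% of all promoters. The GATA element AGATAA (9.17% of promoters), the ETS element ACCGGAA (3.04%), the grainyhead element AACCNGTT (1.49%) and the ESRRB element TNAAGGTCA (0.854%) had no match in the 6, which says only that these letters are not in these windows. The 3 promoters with a match follow, 5′ to 3′ on the strand of the gene and without bases that are annotated as an exon of the gene, with matches in capitals. The forkhead match, on the opposite strand in FOXA1 and TFAP2A, began 235 bases before the start site in FOXA1, 138 in GATA3 and 166 in TFAP2A, and the capitals nearer the 5′ end of GATA3 are the AP-2 match, which began 223 bases before it. These distances are from the RefSeq start. In FOXA1 and ELF3 that start and its window lie inside the span that the expression annotation gives the gene, as do 148 of the 250 bases for TFAP2B and 4 for SPDEF, so for FOXA1 the letters shown are upstream of 1 start and within the gene. A match is not a measured binding site.
FOXA1 (chr14:37595349-37595499, minus strand): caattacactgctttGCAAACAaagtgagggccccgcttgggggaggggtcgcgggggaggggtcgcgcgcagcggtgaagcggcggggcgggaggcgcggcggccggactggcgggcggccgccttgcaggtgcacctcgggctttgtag
GATA3 (chr10:8045083-8045332, plus strand): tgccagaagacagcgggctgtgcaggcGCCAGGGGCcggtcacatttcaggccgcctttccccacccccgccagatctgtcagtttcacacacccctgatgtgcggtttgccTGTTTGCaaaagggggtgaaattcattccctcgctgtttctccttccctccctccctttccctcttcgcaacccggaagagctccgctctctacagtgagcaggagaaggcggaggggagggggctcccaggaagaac
TFAP2A (chr6:10419660-10419909, minus strand): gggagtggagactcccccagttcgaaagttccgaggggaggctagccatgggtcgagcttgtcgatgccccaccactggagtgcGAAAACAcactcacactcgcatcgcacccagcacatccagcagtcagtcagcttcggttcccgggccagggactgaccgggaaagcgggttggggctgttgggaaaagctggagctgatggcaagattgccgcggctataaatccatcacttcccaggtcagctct

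In control cells the 8 factors spanned a wide range of levels. SPDEF was highest at 318 ± 98.6 FPKM (SD, n = 3), followed by GATA3 at 268 ± 39.1, FOXA1 at 168 ± 18.8 and TFAP2B at 72.5 ± 8.07. TFAP2A at 19.3 ± 0.868, GRHL2 at 17.1 ± 2.54, TFAP2C at 10.8 ± 0.639 and ELF3 at 9.37 ± 4.18 FPKM formed the lower part. Neighbours in this order whose libraries overlapped were SPDEF with GATA3, TFAP2A with GRHL2 and TFAP2C with ELF3. All 8 members passed the filter of a mean of 0.5 FPKM. In each of the 3 groups with DES, ELF3 stood in the fourth place by its mean, above the 3 AP-2 genes, after SPDEF, GATA3 and FOXA1 in that order. In DES_cadmium the libraries of ELF3 overlapped those of TFAP2B and TFAP2A, and in DES those of FOXA1.

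**Figure D1:**
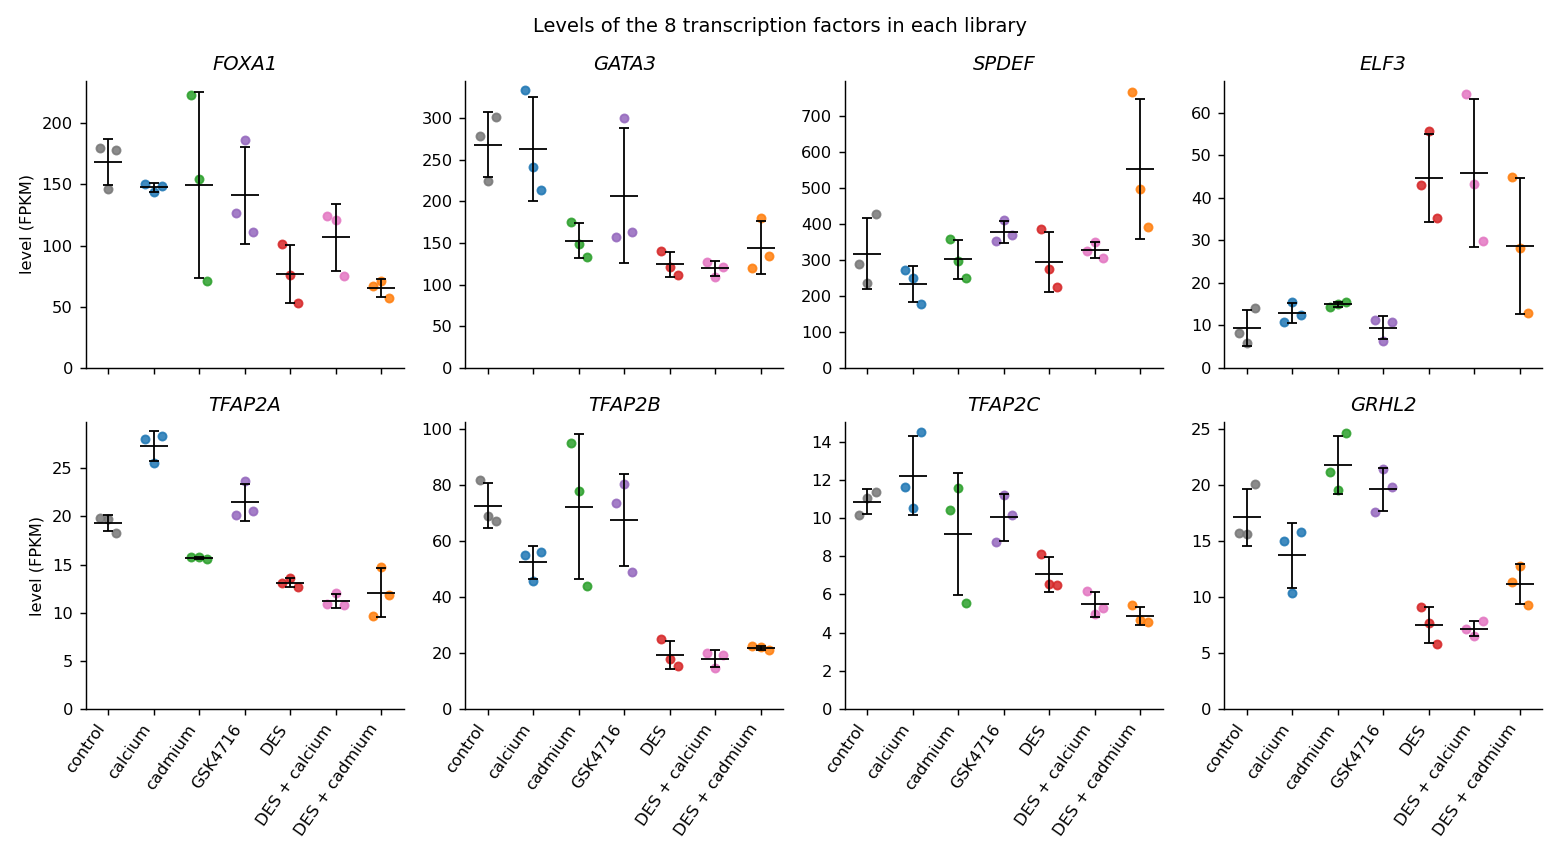
Level of each factor in FPKM (vertical axes, from 0) in the 3 libraries of each group (points), with the mean (bar) and SD (whiskers). TFAP2B in the 9 libraries with DES lay at 14.5 to 24.9 FPKM and in the 12 without it at 43.9 to 94.8, and ELF3 had its highest values, up to 64.5 FPKM, in libraries with DES.

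The comparison of DES with control asked what the antagonist did without added metal. Treatment with DES resulted in lower levels of 6 of the 8 factors, TFAP2B, GRHL2, FOXA1, GATA3, TFAP2C and TFAP2A, and in a higher level of ELF3, while SPDEF did not pass the test. Across 14686 genes tested with limma, 29.6% had a Benjamini-Hochberg adjusted p under 0.05, 12.9% lower and 16.7% higher with DES. This balance turned with the scaling, from 2447 genes higher and 1893 lower here to 1861 and 2538 with total-count scaling, 2075 and 2543 with quantile normalization and 2282 and 2402 with voom. The 4340 genes called became 1930 without control replicate 1, 2128 without control replicate 2 and 2440 without DES replicate 2. The 3 DES libraries lay wholly apart from the 3 control libraries for the 7 factors that passed, as they did for 48.8% of all genes. The median difference of the 8 factors was −0.86 on the log2 scale, against 0.05 over all genes tested. Mitochondrial messenger RNA took 6.49 to 7.14% of fragments in control and 1.78 to 2.51% with DES, while mitochondrial ribosomal RNA took 0.795 to 1.39% and 1.69 to 2.45%, and their part in these differences was not tested. Summed leukocyte markers were at 0 to 0.0423 FPKM in control and 0.141 to 1.05 with DES, and summed mesenchymal markers at 0.723 to 1.39 and 2.81 to 5.36. Basal markers were at 1.18 to 1.44 FPKM in control and 2.38 to 3.03 with DES, and fibroblast markers at 10.5 to 12.02 and 12.5 to 32.8, and the part of these markers was not tested either. In bulk RNA, fewer cells of a kind and less RNA per cell cannot be told apart.

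FOXA1 (ENSG00000129514, GRCh38 chromosome 14, 37589984 to 37596059) was at 179.6, 147 and 179 FPKM in control replicates 1, 2 and 3 and at 101.3, 75.9 and 53.2 FPKM in the DES replicates. Its highest DES library lay below its lowest control library. The difference was −1.17 ± 0.25 (SE) on the log2 scale, a 2.26-fold decrease (limma, adjusted p = 0.0155). Without control replicate 1 the adjusted p was 0.0651, without control replicate 3 it was 0.0517, and without DES replicate 2 it was 0.0554.

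GATA3 (ENSG00000107485, chromosome 10, 8045378 to 8075203) was at 278, 225 and 301 FPKM in control and at 140.1, 121 and 112 FPKM with DES. The groups did not overlap, and every DES library was below the lowest control library by more than the whole range of the DES group. GATA3 fell by 1.11 ± 0.19 on the log2 scale, or 2.15-fold (limma, adjusted p = 0.00774), and passed the test whichever library was left out. The antisense gene GATA3-AS1, which shares 3035 bases with the span of GATA3, was at 21.6 ± 2.68 FPKM in control and 20.8 ± 7.09 with DES. The sources state the library type both as stranded and unstranded, so reads of GATA3 and of this neighbour may not be separated.

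ELF3 (ENSG00000163435, chromosome 1, 202007945 to 202017188), an ETS factor of epithelial differentiation, was the member that rose. It was at 8.23, 5.87 and 14 FPKM in control and at 43.0, 55.6 and 35.1 FPKM with DES. The lowest DES library was above the highest control library, although control replicate 3 stood above the other control libraries. The difference of +2.30 ± 0.33 on the log2 scale, 4.94-fold, passed the test (limma, adjusted p = 0.00419) and did so without any 1 library. AL691482.3, a gene annotated on the same strand within the span of ELF3 and singled out after its values were seen, was at 0.235 ± 0.106 FPKM in control and 3.04 ± 0.770 with DES, so reads counted for either may be shared.

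SPDEF (ENSG00000124664, chromosome 6, 34537802 to 34556333), the other ETS factor, was at 289.9, 236 and 427 FPKM in control and at 387, 275 and 224 FPKM with DES. The groups overlapped over most of their range. The difference was −0.10 on the log2 scale with a 95% confidence interval of −0.82 to 0.63 (limma, adjusted p = 0.83), which leaves room for a change of either sign. ELF3 made up 2.79 ± 0.374% of the summed FPKM of these ETS factors in control and 13.5 ± 3.42% with DES.

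Of the AP-2 genes, TFAP2B (ENSG00000008196, chromosome 6, 50818723 to 50847613) fell most with DES. It was at 81.8, 68.8 and 67.0 FPKM in control and at 24.9, 18.0 and 15.2 FPKM with DES. The lowest control library was far above the highest DES library, with a gap wider than the range of either group. The decrease was 3.80-fold, −1.93 ± 0.21 on the log2 scale (limma, adjusted p = 0.00173), and it passed the test without any 1 library.

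TFAP2A (ENSG00000137203, chromosome 6, 10393186 to 10419659) was at 19.8, 19.8 and 18.3 FPKM in control and at 13.1, 13.6 and 12.6 FPKM with DES. Both groups were narrow and lay apart. TFAP2A fell by 0.56 ± 0.13 on the log2 scale (limma, adjusted p = 0.0194), with an adjusted p of 0.1 without control replicate 1, 0.0777 without control replicate 2 and 0.0539 without DES replicate 2. The antisense gene TFAP2A-AS1, which overlaps 7107 bases of the span of TFAP2A and was singled out after its values were seen, went the other way. It was at 1.17 to 1.70 FPKM in control and 17.8 to 31.8 FPKM with DES, a difference of +3.94 ± 0.25 on the log2 scale (limma, adjusted p = 0.00032). Reads of TFAP2A and of this neighbour may likewise not be separated, so neither its level nor its direction can be assigned to 1 strand.

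TFAP2C (ENSG00000087510, chromosome 20, 56629302 to 56639283), the AP-2 gene with the lowest level, was at 10.1, 11.1 and 11.4 FPKM in control and at 8.09, 6.56 and 6.49 FPKM with DES. The groups did not overlap, with DES replicate 1 nearest to control. TFAP2C fell by 0.62 ± 0.16 on the log2 scale (limma, adjusted p = 0.0259). This call was lost without control replicate 1 (adjusted p = 0.0837), control replicate 2 (0.0929), control replicate 3 (0.0746) or DES replicate 2 (0.0837).

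GRHL2 (ENSG00000083307, chromosome 8, 101492432 to 101669726) was at 15.7, 15.6 and 20.04 FPKM in control and at 9.07, 7.65 and 5.84 FPKM with DES. All DES libraries were below all control libraries. The decrease was 2.28-fold, −1.19 ± 0.21 on the log2 scale (limma, adjusted p = 0.00772), and it passed the test without any 1 library. Leaving out control replicate 1 or DES replicate 2 lowered the number of factors called from 7 to 4.

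The effect of DES was then measured in cells that also received a metal. With calcium, DES resulted in lower GATA3, TFAP2B, TFAP2A, TFAP2C and GRHL2 and higher ELF3, so 6 of 8 factors passed the test, where 35.1% of all genes did, 16.5% lower and 18.5% higher (2722 genes higher and 2426 lower, against 2110 and 3191 with total-count scaling). All 8 factors lay apart between DES_calcium and calcium, as did 50.8% of genes. Mitochondrial messenger RNA took 4.32 to 6.37% of fragments with calcium and 1.98 to 2.56% with DES and calcium, and mitochondrial ribosomal RNA 0.540 to 1.15% and 1.81 to 2.59%. Summed leukocyte markers were at 0 to 0.184 FPKM with calcium and 0.370 to 0.872 with DES and calcium, and summed basal markers at 5.14 to 13.1 and 2.39 to 4.04, and their part in these differences was not tested. TFAP2A was at 28.0, 25.5 and 28.3 FPKM with calcium and at 10.9, 12.03 and 10.8 FPKM with DES and calcium. The groups lay far apart, each within a narrow range, and the difference was −1.27 ± 0.13 on the log2 scale (limma, adjusted p = 0.00199).

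TFAP2B was at 55, 45.7 and 56.1 FPKM with calcium and at 20.1, 14.5 and 19.2 FPKM with DES and calcium, a difference of −1.55 ± 0.17 (limma, adjusted p = 0.00239). TFAP2C was at 11.6, 10.5 and 14.5 FPKM with calcium and at 6.19, 4.95 and 5.27 FPKM with DES and calcium, a difference of −1.14 ± 0.18 (limma, adjusted p = 0.0058). Thus all 3 AP-2 genes were lower with DES on top of calcium. ELF3 rose from 10.7, 15.5 and 12.3 FPKM to 64.5, 43.3 and 29.9 FPKM, a difference of +1.77 ± 0.30 (limma, adjusted p = 0.00644). GATA3 went from 333, 241 and 214 FPKM to 127, 109 and 122 FPKM, a difference of −1.11 ± 0.20 (limma, adjusted p = 0.00823). ELF3 and GATA3 thus moved in opposite directions here too, with no overlap of libraries. Neither passed without the filter on low values (limma, adjusted p = 0.0554 for ELF3 and 0.0595 for GATA3).

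GRHL2 was at 15.0, 10.4 and 15.7 FPKM with calcium and at 7.11, 6.50 and 7.88 FPKM with DES and calcium. It fell by 0.91 ± 0.20 (limma, adjusted p = 0.0162), a call that was lost without calcium replicate 1 (0.0554), DES_calcium replicate 1 (0.0533) or DES_calcium replicate 2 (0.0535). The remaining members did not pass. FOXA1 was at 150.1, 144 and 149 FPKM with calcium and at 124, 121 and 75.4 FPKM with DES and calcium, a difference of −0.50 with an interval of −1.02 to 0.02 (limma, adjusted p = 0.115). FOXA1 passed with total-count scaling (−0.70, adjusted p = 0.0321), quantile normalization (−0.97, adjusted p = 0.00503) and voom (−0.57, adjusted p = 0.047). SPDEF was at 272, 249 and 177 FPKM with calcium and at 324, 350.3 and 306 FPKM with DES and calcium, a difference of +0.51 (limma, adjusted p = 0.0967).

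With cadmium, fewer differences passed, for the factors as for all genes. DES resulted in lower TFAP2B and GRHL2, 2 of 8 factors, where 9.89% of genes passed the test and 5.13% were lower (699 genes higher and 754 lower, against 359 and 1043 with total-count scaling). The 1453 genes called became 0 without any 1 of the cadmium libraries or DES_cadmium replicate 3, and 676 without DES_cadmium replicate 2. TFAP2B was at 94.8, 77.9 and 43.9 FPKM with cadmium and at 22.5, 22 and 21.1 FPKM with DES and cadmium, a difference of −1.65 ± 0.31 (limma, adjusted p = 0.0348). The DES_cadmium libraries were close together, while cadmium replicate 3 stood well below the other cadmium libraries. GRHL2 was at 21.1, 19.6 and 24.6 FPKM with cadmium and at 11.3, 12.8 and 9.26 FPKM with DES and cadmium, a difference of −0.97 ± 0.22 (limma, adjusted p = 0.0435). Neither call held when any 1 of the 6 libraries was left out, with adjusted p up to 0.168 for TFAP2B and 0.172 for GRHL2, both without cadmium replicate 2.

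Between DES_cadmium and cadmium, 5 factors lay apart (TFAP2B, GRHL2, TFAP2A, TFAP2C and SPDEF), as did 40% of genes. SPDEF, at 357, 298 and 251 FPKM with cadmium, was at 769, 497 and 391 FPKM with DES and cadmium, and replicates 1 and 2 were the highest levels of any factor in any library. Its difference of +0.83 ± 0.36 did not pass the test (limma, adjusted p = 0.167). Over 16 alternatives the difference ran from −0.14 to +1.05, and it passed in 1, with all 7 groups in 1 fit. The library size behind the FPKM values was 0.693 of the fragments on genes in DES_cadmium replicate 1. This ratio was 0.960 and 0.933 in replicates 2 and 3 and 1.00 to 1.12 in cadmium, and its part was not tested. GATA3 was at 175, 149 and 134 FPKM with cadmium and at 119.8, 179.8 and 134 FPKM with DES and cadmium, with a difference of −0.09 and an interval of −0.71 to 0.53 (limma, adjusted p = 0.835). ELF3 was at 14.4, 14.9 and 15.5 FPKM with cadmium and at 44.8, 28.1 and 13 FPKM with DES and cadmium, where replicate 3 lay below every cadmium library (difference +0.76, limma, adjusted p = 0.269). Mitochondrial messenger RNA took 0.783 to 3.56% of fragments in DES_cadmium and 5.89 to 7.92% in cadmium, and summed luminal markers were at 1775 to 3548 FPKM and 1555 to 1603, and their part was not tested.

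**Figure D2:**
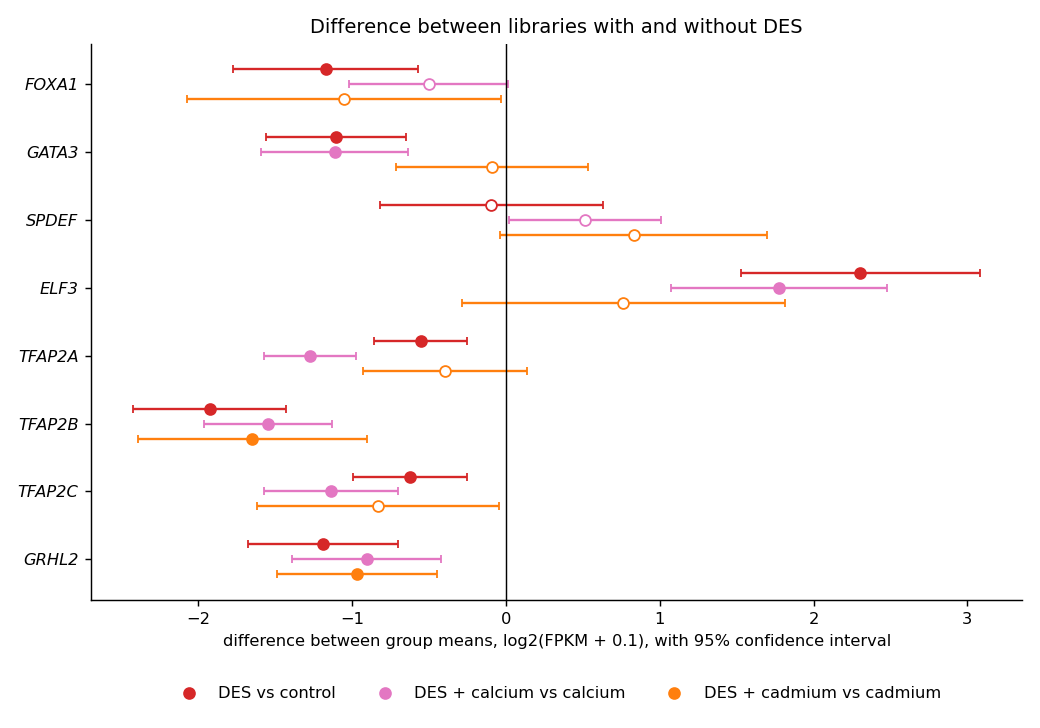
Difference between libraries with and without DES for each factor on the log2(FPKM + 0.1) scale (horizontal axis), with the 95% confidence interval, without metal (red), with calcium (pink) and with cadmium (orange). Filled points passed the test and open points did not. TFAP2B and GRHL2 are the factors with 3 filled points, from −1.93 to −1.55 for TFAP2B and from −1.19 to −0.91 for GRHL2, and ELF3 lies at the right.

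Whether the effect of DES depended on the metal was tested as an interaction, the difference between the log2 differences. Here too the 3 h lead of DES over the metal, which the DES group did not have, cannot be told apart from the metal. With calcium, TFAP2A alone among the 8 factors passed (3.63% of genes did, 533 genes, and 181 to 830 with 1 library left out). DES lowered TFAP2A by 0.56 without calcium and by 1.27 with it, an interaction of −0.72 ± 0.17 (limma, adjusted p = 0.0379), and the call was lost without any 1 library other than DES replicate 1 and DES_calcium replicate 2, with adjusted p up to 0.0926, and with a replicate block (0.0518). For the other 7 factors the adjusted p was at least 0.249. With cadmium 0 of 8 factors passed by limma, where 1.18% of genes did (173 genes, and 15 to 410 with 1 library left out). At an unadjusted p under 0.05 there were 2 factors and 18.5% of genes. These factors were GATA3, with an interaction of +1.02 ± 0.31 (limma, adjusted p = 0.12), and ELF3, with −1.54 ± 0.59 (limma, adjusted p = 0.195). With weights per library, 3 of 8 factors passed the cadmium interaction, GATA3, ELF3 and TFAP2C, where 43.3% of genes did, and with the voom model 0.

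Without DES, few differences of the factors passed. Treatment with calcium resulted in higher TFAP2A, the only factor of the 8 to pass the test, where 7.12% of genes passed and 4.6% were higher (675 genes higher and 371 lower, against 545 and 560 with total-count scaling and 763 and 649 with quantile normalization). That share rested on single libraries, since the 1046 genes called became 7 without control replicate 1, 46 without control replicate 2, 357 without calcium replicate 1 and 285 without calcium replicate 2. TFAP2A was at 25.5 to 28.3 FPKM with calcium against 18.3 to 19.8 FPKM in control, a 1.41-fold increase (+0.50 ± 0.10 on the log2 scale, limma, adjusted p = 0.0403). The call was lost without any 1 of the 6 libraries, with adjusted p from 0.0559 without calcium replicate 3 to 0.158 without control replicate 1. It held in 4 of 16 alternatives, and not with total-count scaling, quantile normalization, voom or a replicate block. TFAP2B also lay apart, lower with calcium at 45.7 to 56.1 FPKM than in control at 67.0 to 81.8 FPKM, but its difference of −0.47 ± 0.14 did not pass (limma, adjusted p = 0.101). Of all genes, 29.6% lay apart. Mitochondrial messenger RNA took 4.32 to 6.37% of fragments with calcium against 6.49 to 7.14% in control. Summed mesenchymal markers were at 1.89 to 3.78 FPKM against 0.723 to 1.39, fibroblast markers at 14.02 to 17.1 against 10.5 to 12.02, basal markers at 5.14 to 13.1 against 1.18 to 1.44 and luminal markers at 2355 to 3434 against 1244 to 1560, all without overlap, and their part in the difference of TFAP2A was not tested. TFAP2A-AS1 was at 3.03 ± 0.656 FPKM with calcium and 1.46 ± 0.265 in control (difference +1.00, limma, adjusted p = 0.0639).

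With cadmium, 0 of the 8 factors passed by limma, where 0.15% of genes did. These 22 genes became 1605 without cadmium replicate 1 and 1 to 9 without any other library. Summed basal markers were at 1.69 to 5.35 FPKM with cadmium against 1.18 to 1.44 in control and mesenchymal markers at 1.86 to 5.70 against 0.723 to 1.39, and mitochondrial ribosomal RNA took 1.41 to 2.01% of fragments against 0.795 to 1.39%. At an unadjusted p under 0.05 there were 3 factors and 25.9% of genes, and these 3 lay apart from control, as did 34.4% of genes. The voom model on recovered fragments also called 0 factors. GATA3 was at 134 to 175 FPKM with cadmium against 225 to 301 FPKM in control, a difference of −0.81 ± 0.18 (limma, adjusted p = 0.0816), and without cadmium replicate 1 the adjusted p was 0.0457. ELF3 was at 14.4 to 15.5 FPKM with cadmium against 5.87 to 14 FPKM in control (difference +0.76 ± 0.31, limma, adjusted p = 0.19). TFAP2A was at 15.6 to 15.8 FPKM with cadmium against 18.3 to 19.8 FPKM in control (difference −0.30 ± 0.10, limma, adjusted p = 0.152). TFAP2A thus lay on opposite sides of control with calcium and with cadmium. FOXA1 varied most within this group, at 223, 154 and 71.3 FPKM, and its interval of −1.31 to 0.69 holds large changes of either sign.

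With the agonist GSK4716, 0 of 8 factors passed by limma, and so did 0% of all genes, while 16.4% of genes and 0 factors had an unadjusted p under 0.05. The voom model on recovered fragments called 81 genes and 0 factors. GATA3 was at 157, 301 and 163 FPKM with GSK4716, where replicate 2 reached the level of control and the other libraries did not (difference −0.43, interval −1.12 to 0.27). TFAP2A lay apart from control at 20.2, 23.7 and 20.6 FPKM (difference +0.15, limma, adjusted p = 0.472), as did 22.1% of genes. TFAP2B was at 73.4, 80.1 and 49.0 FPKM and ELF3 at 11.2, 6.39 and 10.8 FPKM, both overlapping control.

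**Figure D3:**
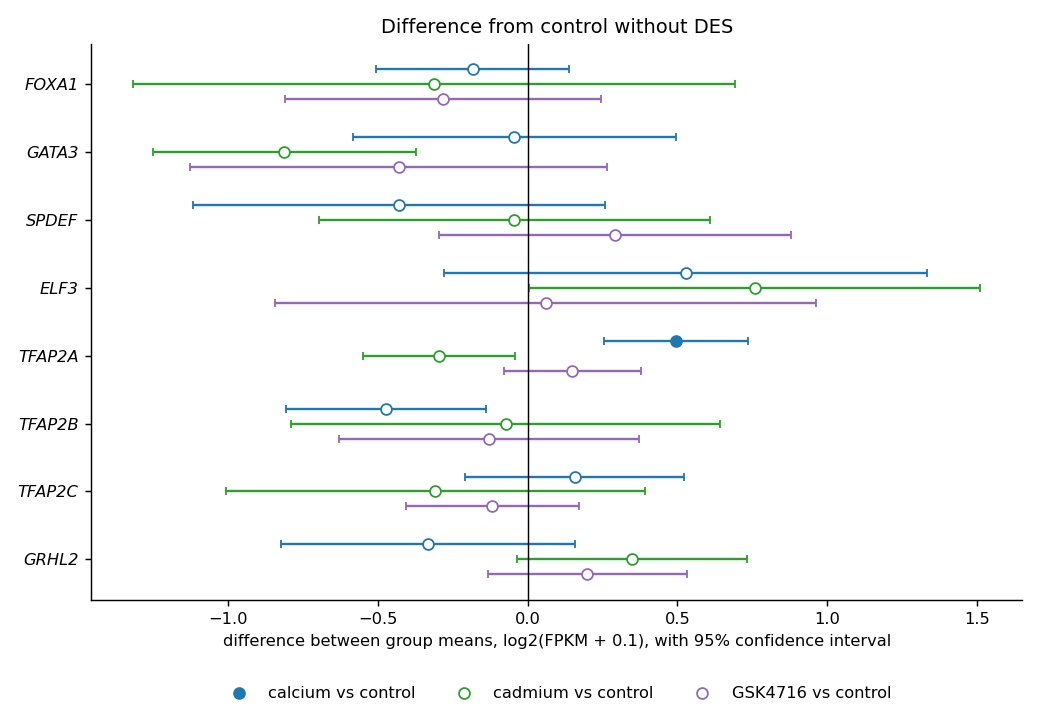
Difference from control for each factor on the log2(FPKM + 0.1) scale (horizontal axis), with the 95% confidence interval, for calcium (blue), cadmium (green) and GSK4716 (purple). Filled points passed the test and open points did not. The only filled point is TFAP2A with calcium, at +0.50, and the lowest point is GATA3 with cadmium, at −0.81.

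The make-up of the AP-2 family was described by the share of each gene. The shares rest on exon lengths of 8274 bases for TFAP2A, 6149 for TFAP2B and 3005 for TFAP2C. TFAP2B made up 70.5 ± 2.31% of the summed FPKM of the 3 AP-2 genes in control, 56.9 ± 1.13% with calcium and 48.5 ± 5.03% with DES. Each of these treated groups lay wholly below control (two-sided exact permutation p = 0.1 for both, the smallest that 3 libraries against 3 allow). With cadmium the share was 73.3 ± 5.44% and with GSK4716 67.6 ± 5.43%, which overlapped control. DES on top of cadmium gave 56.4 ± 3.36%, below all cadmium libraries (exact permutation p = 0.1). TFAP2A took 18.9 ± 1.05% of the sum in control, 29.8 ± 1.32% with calcium and 33.6 ± 4.56% with DES. The rise of its share with DES was therefore not a rise of its level, which fell.

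**Figure D4:**
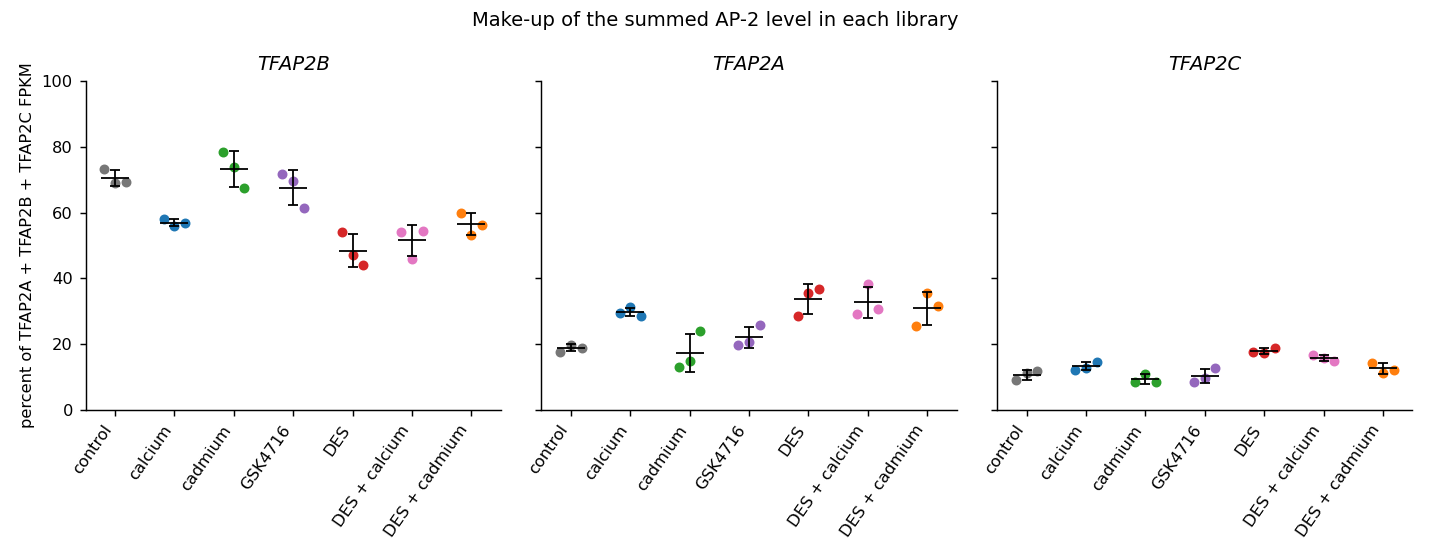
Percent of the summed FPKM of TFAP2A, TFAP2B and TFAP2C that each gene made up (vertical axis, 0 to 100) in the 3 libraries of each group (points), with the mean (bar) and SD (whiskers). The share of TFAP2B was 70.5% in control and 48.5% with DES, and that of TFAP2C 10.6% and 17.9%.

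The comparisons of metal added on top of DES asked whether calcium or cadmium changed the factors in cells that already had the antagonist, and no factor passed either of them. For DES_calcium against DES, 0 of 8 factors passed by limma, where 0.136% of genes did, and 0 factors and 13.2% of genes had an unadjusted p under 0.05. The 20 genes called became 0 to 41 with 1 library left out, 0 with voom and 166 with all 7 groups in 1 fit. TFAP2A and TFAP2C lay apart, both lower with calcium, as did 19.9% of genes in either direction. For DES_cadmium against DES, 0 of 8 factors passed, where 0.266% of genes did, and 0 factors and 10.4% of genes had an unadjusted p under 0.05. The 39 genes called here became 0 to 96 with 1 library left out, 0 with voom and 603 with all 7 groups in 1 fit. SPDEF (difference +0.88 ± 0.38) and GRHL2 (+0.57 ± 0.25) lay apart above DES and TFAP2C (−0.52 ± 0.22) below it, with adjusted p of 0.489, 0.503 and 0.489 (limma), while 16.2% of genes lay apart. The voom model called 0 factors in both comparisons. The lead of DES over the metal, which the DES group itself did not have, cannot be told apart from the metal here.

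Relatives of the 8 factors were examined next, from a list of 16 genes of the same families, of which 10 were tested. DES resulted in higher GATA2 and lower ELF4, 2 of 10 where 29.6% of all genes passed, and the other 8 did not pass. GATA2, a GATA factor best known from blood, was at 10.2 ± 0.554 FPKM in control and 21 ± 3.61 with DES, a difference of +1.02 (limma, adjusted p = 0.0061) opposite in sign to that of GATA3. ELF4, an ETS factor, was at 7.65 ± 1.25 FPKM in control and 3.51 ± 0.453 with DES, a difference of −1.10 (limma, adjusted p = 0.00786) opposite in sign to that of ELF3. With calcium, DES again resulted in higher GATA2 (+0.71, adjusted p = 0.0205) and lower ELF4 (−1.09, adjusted p = 0.00971), and also in lower GATA6 (−0.99, adjusted p = 0.0267), 3 of 10 where 35.1% of all genes passed. GATA2 did not pass here without DES_calcium replicate 1 (0.0739) or calcium replicate 2 (0.05), and GATA6 passed only without DES_calcium replicate 2, with adjusted p up to 0.0815. The relatives EHF, ELF1, ELF2, GRHL1, GRHL3 and GATA4 did not pass in any of the 8 comparisons between groups. The median difference of the list with DES was 0.21, against 0.05 over all genes.

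Of 12 partners of the luminal factors reported here, 8 were tested, and the receptor genes ESR1, PGR, ESRRB and ESRRG were below the filter in mean level. Over all libraries ESRRB was at a mean of 0.0497 FPKM, ESR1 at 0.0149, PGR at 0.0382 and ESRRG at 0.245. Treatment with DES resulted in lower TRPS1, MYB and ESRRA, 3 of 8 where 12.9% of all genes were lower, and none of these 8 passed as higher, where 16.7% of all genes did. TRPS1, a GATA-type repressor of the luminal lineage, went from 29.7 ± 6.77 to 13.1 ± 1.93 FPKM (−1.16, limma, adjusted p = 0.00943). ESRRA, the estrogen-related receptor alpha, was lower with DES alone (−0.83, adjusted p = 0.037) and on top of calcium (−1.12, adjusted p = 0.00287), the 1 call of these 8 there, where 35.1% of all genes passed. Calcium alone resulted in higher TBX3, a T-box factor (+1.3, adjusted p = 0.0246), and lower TLE3, a corepressor (−0.77, adjusted p = 0.0393), 2 of 8 where 7.12% of all genes passed. With DES alone TRPS1 passed without any 1 library, ESRRA passed only without DES replicate 1 (adjusted p up to 0.104) and MYB only without DES replicate 3 (up to 0.143). XBP1, ZNF703 and KMT2C passed in none of the 8 comparisons between groups.

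**Figure D5:**
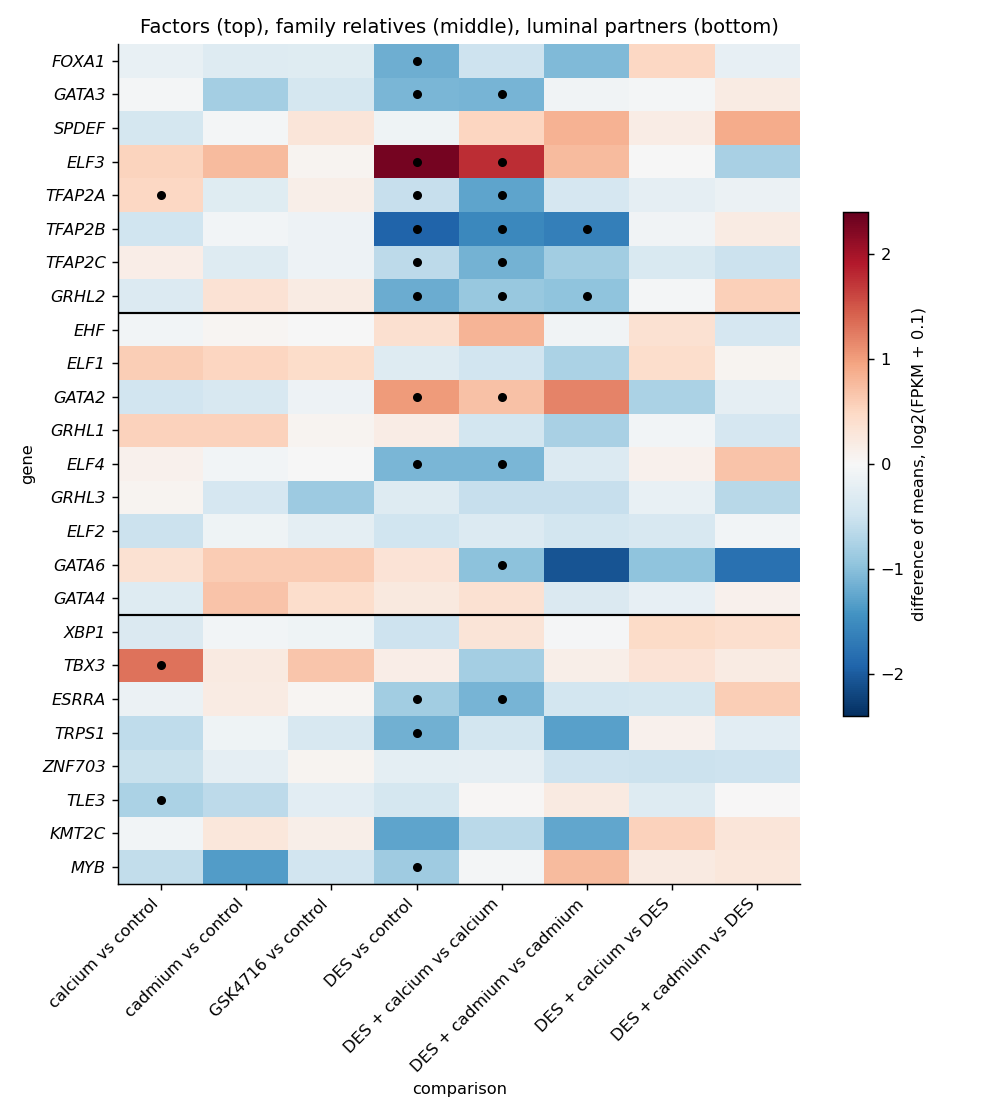
Difference between group means on the log2(FPKM + 0.1) scale (colour, red higher and blue lower in the group named before vs) for the 8 factors, 9 relatives and 8 partners (vertical axis) in 8 comparisons (horizontal axis), with a black dot where the adjusted p was under 0.05. Values ran from −2.07 (GATA6, DES_cadmium against cadmium) to 2.30 (ELF3, DES against control), and 27 cells carry a dot.

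Genes of the luminal epithelium, among them keratins, claudins and secreted trefoil factors, were taken as a further list. Of 20 such genes 17 were tested, and calcium resulted in higher levels of 8 of them (TFF1, CLDN4, KRT8, KRT18, CLDN7, KRT7, AGR2 and CDH1), where 4.6% of all genes were higher, and a lower level of FBP1. Each of the 15 calls with calcium on genes of the lists, here and in the paragraphs on partners and on junctions, was lost without control replicate 1 and without control replicate 2 (adjusted p of KRT8 0.11 and 0.1). KRT8, a luminal keratin, was at 180.2 ± 44 FPKM in control and 626 ± 155 with calcium (+1.79, limma, adjusted p = 0.0227), and CLDN4, a claudin of tight junctions, went from 44.5 ± 14.5 to 184 ± 42.9 FPKM (+2.06, adjusted p = 0.0174). With DES, CDH1, which encodes E-cadherin, rose from 5.001 ± 0.111 to 20.6 ± 2.77 FPKM (+2.01, limma, adjusted p = 0.000543) and TFF3 rose by 1.39 (adjusted p = 0.0444), in the same libraries in which GRHL2 fell. These were 2 of 17 genes, where 29.6% of all genes passed. CDH1 passed without any 1 library, whereas TFF3 did not pass without control replicate 1 (0.108), control replicate 2 (0.122), DES replicate 1 (0.096) or DES replicate 2 (0.12). The keratin KRT19, the list's highest gene, was at 572 ± 26.1 FPKM in control and 501 ± 132 with DES (limma, adjusted p = 0.533). With DES on top of calcium, CLDN4 and CLDN7 were lower and FBP1, PIP and TFF3 higher, 5 of 17 where 35.1% of all genes passed, and for CLDN4 the difference was −2.88 (limma, adjusted p = 0.00167). The interaction of calcium with DES passed for CLDN4 (−2.41, adjusted p = 0.006) and CDH1 (−1.55, adjusted p = 0.00579).

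Of 14 genes for epithelial splicing and junctions, all tested, DES resulted in higher CGN, PRSS8, RAB25 and OVOL1 and lower ESRP2, 5 of 14 where 29.6% of all genes passed and 16.7% were higher. CGN, which encodes cingulin of tight junctions, was at 1.92 ± 0.711 FPKM in control and 5.98 ± 1.06 with DES (+1.64, limma, adjusted p = 0.0104), and PRSS8, a membrane protease, rose by 1.3 (adjusted p = 0.022). CGN and ESRP2 passed without any 1 library, while PRSS8 (0.0775), RAB25 (0.112) and OVOL1 (0.11) did not without control replicate 1, nor without control replicate 2 or DES replicate 2. OVOL1 and OVOL2, zinc finger factors that maintain epithelium, moved apart with calcium, OVOL1 by +2.59 (limma, adjusted p = 0.0115) and OVOL2 by −1.11 (adjusted p = 0.0178). With DES on top of calcium, MARVELD3, PKP3, SPINT1 and ESRP2 were lower and RAB25 higher, 5 of 14 where 35.1% of all genes passed. The list's median difference with DES was 0.00, against 0.05 over all genes. Of 16 basal and mesenchymal genes only 4 were tested, and SNAI1 was higher with DES (from 0.149 ± 0.0267 to 2.92 ± 1.14 FPKM, limma, adjusted p = 0.00167), while TRIM29 was higher with calcium. KRT17 was called with calcium too, but it reached the filter of 0.5 FPKM only through the calcium group (mean 4.58 FPKM, the other 6 group means at most 0.819), so that call is no independent evidence.

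Over all 21 libraries, the factors differed in how far they ranged. ELF3 had the widest range, with its highest library 11 times its lowest, and TFAP2A the narrowest, at 2.94 times. TFAP2B and TFAP2A were the members whose 9 libraries with DES did not overlap the 12 without it, at 14.5 to 24.9 against 43.9 to 94.8 FPKM for TFAP2B and at 9.64 to 14.7 against 15.6 to 28.3 FPKM for TFAP2A. How many of all genes did so was not counted, so this is not shown to be particular to these genes. Between DES and control alone 48.8% of genes lay apart, and between DES_calcium and calcium 50.8%. The lowest GATA3 library without DES, at 134 FPKM, was within the range with DES, which reached 179.8 FPKM, and FOXA1, SPDEF, TFAP2C, GRHL2 and ELF3 overlapped too.

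Across the 21 libraries, which share treatments and so are not independent, TFAP2B was most alike GRHL2 among the members (Pearson's r = 0.88 on the log2 scale) and most unlike ELF3 (r = −0.83). For SPDEF, r with the other members ran from −0.45 (TFAP2A) to 0.24 (ELF3). Among all other genes with a mean of at least 1 FPKM, those most like each member were HMGXB4 and AC068888.1 for FOXA1 (r = 0.88 and 0.89), ZDHHC14 and PSD4 for GATA3 (0.92 and 0.89), and HID1 and DNAL4 for SPDEF (0.90 and 0.88). For the AP-2 genes they were AGO4 and ZDHHC14 for TFAP2A (0.95 and 0.93), MEPCE and LINC01089 for TFAP2B (0.97 and 0.96), and BAG5 and SLC35D1 for TFAP2C (0.92 and 0.92). For GRHL2 they were PPP1R10 and GALNT10 (0.94 and 0.94), and for ELF3 PIM3 and PCGF1 (0.93 and 0.93). ZDHHC14, which encodes a palmitoyltransferase, was thus on the list of both GATA3 and TFAP2A.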

How the data were processed

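RNA was measured in 21 libraries of MDA-MB-453 cells. The authors purified poly-A RNA, sequenced it as read pairs, aligned it to GRCh38.p14 with HISAT2 2.0.5 and counted genes with featureCounts 1.5.0-p3, per the submitters' processing notes, and deposited FPKM values for 58735 genes. Every FPKM value was a whole number of fragments divided by gene length and library size, within 0.1 of a fragment. Library sizes were inferred from the values. The recovered fragments gave 14435925 to 28424805 per library, with at most 0.643% of genes equal in a pair of libraries. The precision of low genes is set by these counts. Tests used limma 3.58.1 (R 4.3.3) with a trended variance on log2(FPKM + 0.1) over the 14686 genes with a mean of at least 0.5 FPKM, on the groups compared only, with Benjamini-Hochberg adjustment over all of them and a threshold of 0.05. Fold changes are on that log2 scale. The code was tested on simulated data. There were 8 comparisons between groups and 2 interactions. The authors' methods name DESeq2 and edgeR, and a voom fit of the recovered fragments was an alternative, since the deposited unit is not a count.

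The 8 factors and the gene lists were chosen with earlier results of these data known. Genes named were the 8 factors, relatives and partners with a mean of at least 1 FPKM, in the other lists the 3 genes with the highest mean and the 2 called genes with the largest difference in each comparison, and the 2 genes most like each factor. Other called genes of a list were named after their values were seen. Lists were not tested as sets. 1 gene of the partner list is not reported here. Same-numbered libraries deviated together in DES_calcium against DES (r = 0.132, 0.103 and 0.280) and in DES_cadmium against DES (r = 0.472, 0.121 and 0.313), and a replicate block called 0 factors in both, as the fit without it did.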

Additional observations from a re-analysis of the deposited data

Results flagged for a closer look

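The response of TFAP2A to DES differed with calcium by the test of that difference, an interaction of −0.72 on the log2 scale (limma, adjusted p = 0.0379). In DES_calcium DES was given 3 h before calcium, a lead the DES group did not have, and lead and calcium cannot be told apart. TFAP2A fell in all 3 DES libraries and in all 3 DES_calcium libraries relative to their comparison groups, by 0.56 and by 1.27 on the log2 scale. Calcium without DES was at 25.5 to 28.3 FPKM, above control at 18.3 to 19.8 FPKM, whereas DES_calcium at 10.8 to 12.03 FPKM was below DES at 12.6 to 13.6 FPKM. The interaction was called in 8 of 22 alternatives, with values from −0.77 to −0.67, and not with a replicate block (adjusted p = 0.0518).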

How the results depend on the processing

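No call on a factor, or on a gene reported here from the lists or from those that overlap a factor, changed direction in any alternative run. Of 53 such calls beside the factors, 23 passed without any 1 library, 9 of 15 with DES, 12 of 16 with DES on top of calcium, 0 of 15 with calcium, 0 of 3 with DES on top of cadmium, 2 of 3 for the interaction with calcium and 0 of 1 for that with cadmium. The 15 with calcium include KRT17, whose call is no independent evidence. Of 1456 values of single factors under an alternative, 55 had another sign than the value reported, and 0 of these were called under either setting. The number of factors called with DES against control was 7 and became 4 without the filter on low values, and 4 to 7 when 1 library was left out. For DES_calcium against calcium it was 6 and became 3 without the filter, 5 to 6 with 1 library left out and 7, with FOXA1 added, with total-count scaling, quantile normalization or voom. For DES_cadmium against cadmium it was 2 and became 0 without the filter, 1 with a log2 difference of at least 1 in size, 6 with all 7 groups in 1 fit, where 5459 genes (37.2%) were called, 5 with weights per library, and 0 to 0 with 1 library left out. For calcium it was 1 and became 0 without the filter, with total-count scaling, quantile normalization, all 7 groups in 1 fit, voom or a log2 difference of at least 1 in size, 2 with weights per library, and 0 to 0 with 1 library left out. For cadmium it was 0 and became 4 with weights per library and 0 to 1 with 1 library left out. With weights per library, DES_cadmium against DES went from 0 to 2, where all genes called went from 39 to 1976 (13.5%), and the interaction with cadmium from 0 to 3, where they went from 173 to 6358 (43.3%), with single libraries given high weights. The interaction with calcium went from 1 to 0 with quantile normalization, all 7 groups in 1 fit, voom or a log2 difference of at least 1 in size, and to 0 to 1 with 1 library left out. The causes were not tested.

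A replicate block changed the calls from 7 to 5 for DES against control and from 2 to 0 for DES_cadmium against cadmium. It changed them from 1 to 0 for calcium and for the interaction with calcium, and no other call on a factor changed. Of the 53 calls on other genes it ended 19, 11 with calcium, 4 with DES, 1 with DES on top of calcium and 3 with DES on top of cadmium. The labels do not pair the libraries by number. Beside the comparisons named in the methods, in DES_calcium against calcium every library was most alike its own number (r = 0.102, 0.058 and 0.159), a hint from the data only. For GSK4716, 0 factors were called in every alternative. Total-count scaling moved the median of all genes from 0.05 to −0.12 for DES against control, from −0.01 to −0.20 for DES_calcium against calcium, from −0.01 to −0.13 for calcium and from −0.08 to −0.39 for DES_cadmium against cadmium. SPDEF with DES was called under quantile normalization (−0.81, adjusted p = 0.02), where the median of all genes was −0.09. Genome-wide counts with cadmium were 22 genes in the fit reported, 509 with voom, 1026 with all 7 groups in 1 fit, 1605 without cadmium replicate 1 and 1 without cadmium replicate 2. For DES against control, 4340 genes became 1930 without control replicate 1, 2128 without control replicate 2 and 2440 without DES replicate 2, and for DES_calcium against calcium 5148 became 3263 without DES_calcium replicate 1. With 1 library left out, the interaction with calcium was called for 181 to 830 genes and that with cadmium for 15 to 410. Without the filter they went from 4340 to 2106 genes for DES against control, from 5148 to 2320 for DES_calcium against calcium, from 1453 to 132 for DES_cadmium against cadmium and from 1046 to 60 for calcium. Weights per library gave 10334 genes for DES against control, 8325 (56.7%) for cadmium, 8241 (56.1%) for DES_cadmium against cadmium and 2270 (15.5%) for calcium, and the block 0 genes for DES_cadmium against cadmium and 260 for calcium.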
